A study of Bos taurus with 9 samples.

Results

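Sodium pump beta subunits, aquaporins and a membrane scaffold, 6 genes tied to fluid transport across the outer cells of the embryo, were followed through bovine cloned embryos. They are ATP1B1, ATP1B2 and ATP1B3, AQP3 and AQP11, and SLC9A3R1. They were chosen by symbol, and each of the 6 symbols named 1 row, among 17258 annotated genes listed in at least 1 file and 16129 listed in all 9. The choice covers 3 beta subunits and 2 aquaporins. The label of cavitation describes what these genes are known for, since the values hold no measure of a cavity.

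All embryos were clones from somatic cell nuclear transfer (SCNT), in which a donor nucleus replaces that of the egg, from fetal fibroblasts of 1 Holstein fetus. KDM6A morulae came from reconstructed embryos given mRNA for bovine wild-type KDM6A, a histone H3 lysine demethylase, 1 h after activation (3 libraries). Control morulae came from SCNT embryos that were not injected, so injection itself and KDM6A cannot be told apart (3 libraries). Each morula library holds 5 embryos taken at day 5. The remaining group was SCNT embryos at the 8-cell stage (3 libraries), for which the labels describe neither an injection nor a pool size. Per the labels these come from an earlier series, so an effect of stage cannot be told apart from one of the source series. All groups share Holstein donor cells and SCNT, and no fertilised embryos are among them. Nothing in the labels says that the pools of a group were made on separate days, so a p-value here covers just the spread among libraries, which may be technical.

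The mammalian embryo makes its cavity by pumping. As known from mouse work, Na+/K+-ATPase in the basolateral membrane of the outer cells moves sodium inward, water follows through aquaporins, and tight junctions hold the fluid in. The pump works only as a complex in which a beta subunit folds the alpha subunit and brings it to the cell surface, and sodium enters the outer cells partly through sodium-proton exchangers. A morula is compacting or compacted and has not yet formed its cavity.

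Values are FPKM, which scales fragments by transcript length and library, so levels of different genes may be set side by side. The depth behind them is unknown, and no counting interval is given. Summed FPKM over annotated genes ran from 913645.5 to 936536.6 in KDM6A morulae, 927096 to 989915.8 in control morulae and 820345.5 to 860797.5 in 8-cell embryos. Correlations of log2(FPKM + 1) over the 16129 shared genes were 0.983 to 0.993 within KDM6A morulae, 0.986 to 0.992 within control morulae, and 0.973 to 0.979 within 8-cell embryos. KDM6A transcript stood at 35.65, 87.58 and 79.44 FPKM in KDM6A morulae 1, 2 and 3, against 10.72, 13.86 and 10.74 FPKM in the control morulae. The keratins KRT8 and KRT18, simple epithelial markers of the outer cells, were at 4.51 to 18.31 and 18.45 to 51.52 FPKM in KDM6A morulae, 12.3 to 20.99 and 31.76 to 66.19 FPKM in control morulae, and 0 to 0.53 and 0.04 to 0.41 FPKM in 8-cell embryos. Of 7 trophectoderm markers on the list, these 2 among them, 3 were higher and 1 lower in KDM6A morulae than in 8-cell embryos (6 tested). In control morulae 5 were higher and 1 lower (7 tested, limma adjusted p under 0.05). Over all genes tested, 41.1% were higher and 25.6% lower in KDM6A morulae, and 42.7% and 27.1% in control morulae. Only 3 of the 6 and 4 of the 7 reached 1 FPKM in some library of both groups. KRT8 and KRT18 entered both tests through the morulae alone, as PTGS2 did that of control morulae, so these calls add no support. The marker called lower in both comparisons was TFAP2C, a transcription factor. It stood at 161.43 to 184.51 FPKM in KDM6A morulae, 160.66 to 170.95 FPKM in control morulae and 310.12 to 425.48 FPKM in 8-cell embryos. In pooled embryos, fewer cells of a type and less RNA per cell cannot be told apart. Some libraries stand apart in marker lists. Control morula 1 held more transcript of 9 oocyte and maternal genes than the other controls, with a summed 488.78 FPKM against 22.54 and 117.55 FPKM in control morulae 2 and 3. The 8-cell library 2 held the highest sum of 10 donor fibroblast markers, 82.78 FPKM against 30.89 and 39.03 FPKM in 8-cell libraries 1 and 3. Of that sum LUM made up 29.11 FPKM, while PDGFRA was lowest in library 2, at 12.91 FPKM. The same library held the highest sum of 6 cumulus and granulosa markers, 25.64 FPKM against 15.22 and 16.25 FPKM.

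**Figure D1:**
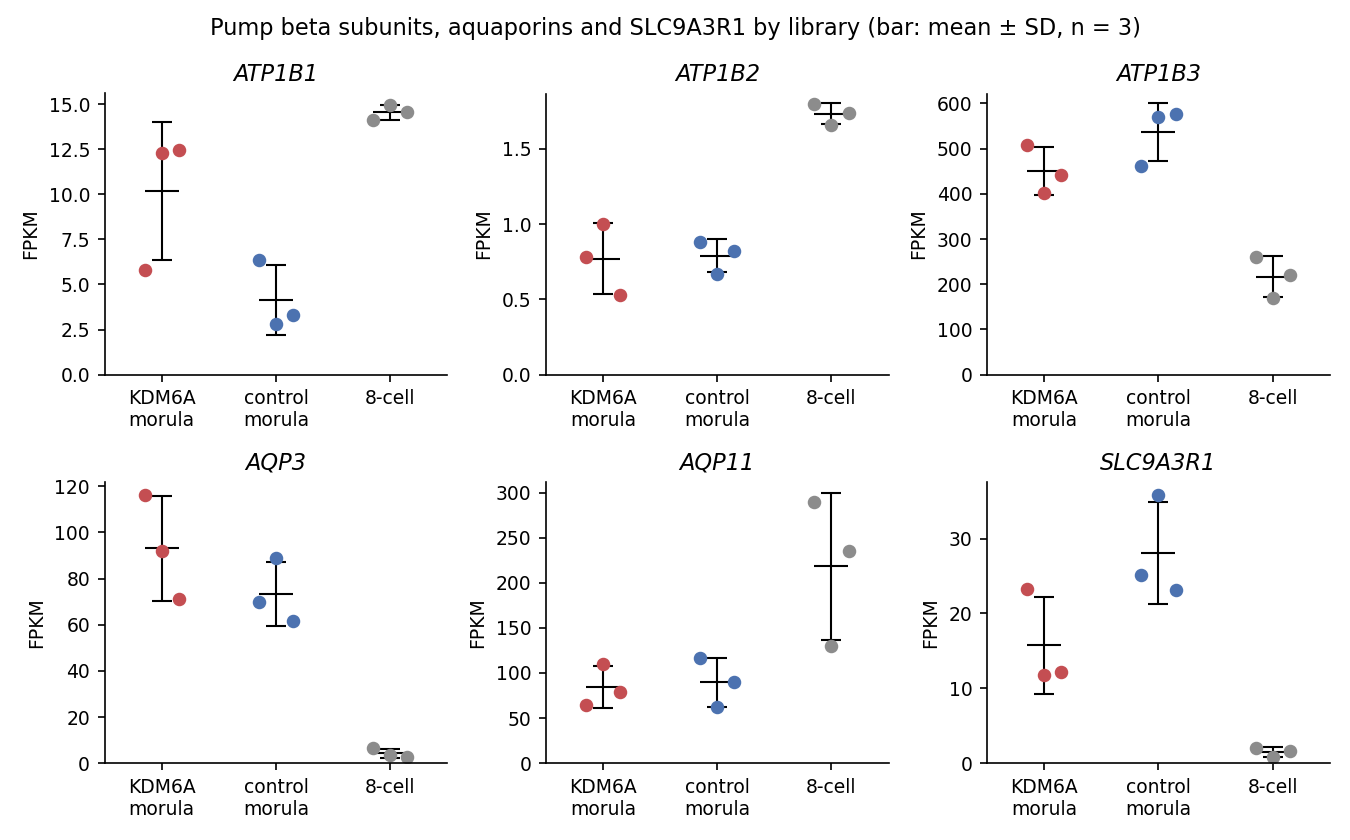
FPKM of each of the 6 genes (vertical axes, linear and starting at 0) in the 3 libraries of KDM6A morulae, control morulae and 8-cell embryos; points are libraries 1 to 3 from left to right and bars give the mean ± SD. Every gene separates morulae from 8-cell embryos, while the points of KDM6A and control morulae overlap in all 6 panels.

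Between the 8-cell stage and the morula the 6 genes divided evenly. ATP1B3, AQP3 and SLC9A3R1 were higher in control morulae, with AQP3 and SLC9A3R1 at 17.2 and 18.9 times their 8-cell mean. ATP1B1, ATP1B2 and AQP11 were lower. All 6 passed the test of control morulae against 8-cell embryos (limma, adjusted p under 0.05), 3 higher and 3 lower. Of the 10048 genes tested 69.8% passed, 42.7% higher and 27.1% lower. ATP1B2 passed the filter through the 8-cell libraries, here and against KDM6A morulae, so its calls in these counts add no support. The libraries of the groups did not overlap for any of the 6, and likewise for 74.5% of the genes tested, so a separation between these groups is what most genes showed. The sizes of the AQP3 and SLC9A3R1 differences stand further out, at percentiles 98.5 and 97.9 of all log2 fold changes in that comparison. Those of ATP1B3, ATP1B2, AQP11 and ATP1B1 lay at percentiles 74.3, 27.5, 15.6 and 10.1. In KDM6A morulae against 8-cell embryos 5 of the 6 passed, 3 higher and 2 lower, against 66.7% of 10024 genes tested, 41.1% higher and 25.6% lower. ATP1B1 did not pass. The groups did not overlap for any of the 6, and likewise for 71.3% of genes. Both comparisons use the same 8-cell libraries.

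ATP1B3 (ENSBTAG00000014140.2) encodes a beta subunit found in many tissues and was by far the most abundant of the 3. It stood at 507.71, 401.34 and 442.49 FPKM in KDM6A morulae, 462.05, 570.65 and 575.86 FPKM in control morulae, and 259.91, 169.07 and 221.42 FPKM in 8-cell embryos. Every morula library lay above every 8-cell library, and the KDM6A and control morulae overlapped. Means were 450.5 ± 53.6 FPKM in KDM6A morulae, 536 ± 64.3 FPKM in control morulae and 217 ± 45.6 FPKM in 8-cell embryos (SD, n = 3 each). On the log2(FPKM + 1) scale ATP1B3 was higher by 1.32 in control morulae than in 8-cell embryos (SE 0.203, limma adjusted p = 0.000279), and by 1.07 in KDM6A morulae (SE 0.204, limma adjusted p = 0.000863). The median of all genes in these fits was 0.35 and 0.34, and 0.0692 and 0.0743 after quantile normalization, under which the ATP1B3 changes were 1.10 and 0.93. Even in 8-cell embryos ATP1B3 exceeded 95.6% to 96.5% of the 16129 shared genes. The 8-cell library 2, with the most fibroblast marker transcript, was the lowest for ATP1B3, and without it the changes were 1.15 and 0.90 (limma adjusted p = 0.000603 and 0.00196).

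ATP1B1 (ENSBTAG00000002688.5), the beta subunit usual in epithelia, was lower than ATP1B3 in every library. Levels were 5.79, 12.29 and 12.47 FPKM in KDM6A morulae, 6.38, 2.80 and 3.30 FPKM in control morulae, and 14.10, 14.93 and 14.56 FPKM in 8-cell embryos. The 8-cell libraries lay close together and above all 6 morula libraries. KDM6A morulae 2 and 3 lay nearer to the 8-cell level, and KDM6A morula 1 lay among the controls, below control morula 1. ATP1B1 was lower by 1.65 on the log2 scale in control morulae than in 8-cell embryos (log2 fold change -1.65, SE 0.284, limma adjusted p = 0.000541). In KDM6A morulae the log2 fold change against 8-cell embryos was -0.54 with a 95% confidence interval of -1.21 to 0.13 (limma adjusted p = 0.134). It passed after quantile normalization (-0.81, limma adjusted p = 0.0448) and after median-of-ratios scaling (-0.78, limma adjusted p = 0.0419). The difference between these 2 changes is the comparison of KDM6A with control morulae, which did not pass.

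ATP1B2 (ENSBTAG00000013680.4), the beta subunit best known from brain, was the lowest. It stood at 0.78, 1.00 and 0.53 FPKM in KDM6A morulae, 0.88, 0.67 and 0.82 FPKM in control morulae, and 1.80, 1.66 and 1.74 FPKM in 8-cell embryos. The morula groups overlapped and both lay below the 8-cell libraries. Log2 fold changes were -0.61 in control morulae (SE 0.193, limma adjusted p = 0.0165) and -0.64 in KDM6A morulae (SE 0.218, limma adjusted p = 0.0241). The gene passed the filter of 1 FPKM in 3 libraries through the 8-cell libraries, since 0 control morulae and 1 KDM6A morula reached that level, so these calls add no support. The call in KDM6A morulae was lost without KDM6A morula 3 (limma adjusted p = 0.0924).

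**Figure D2:**
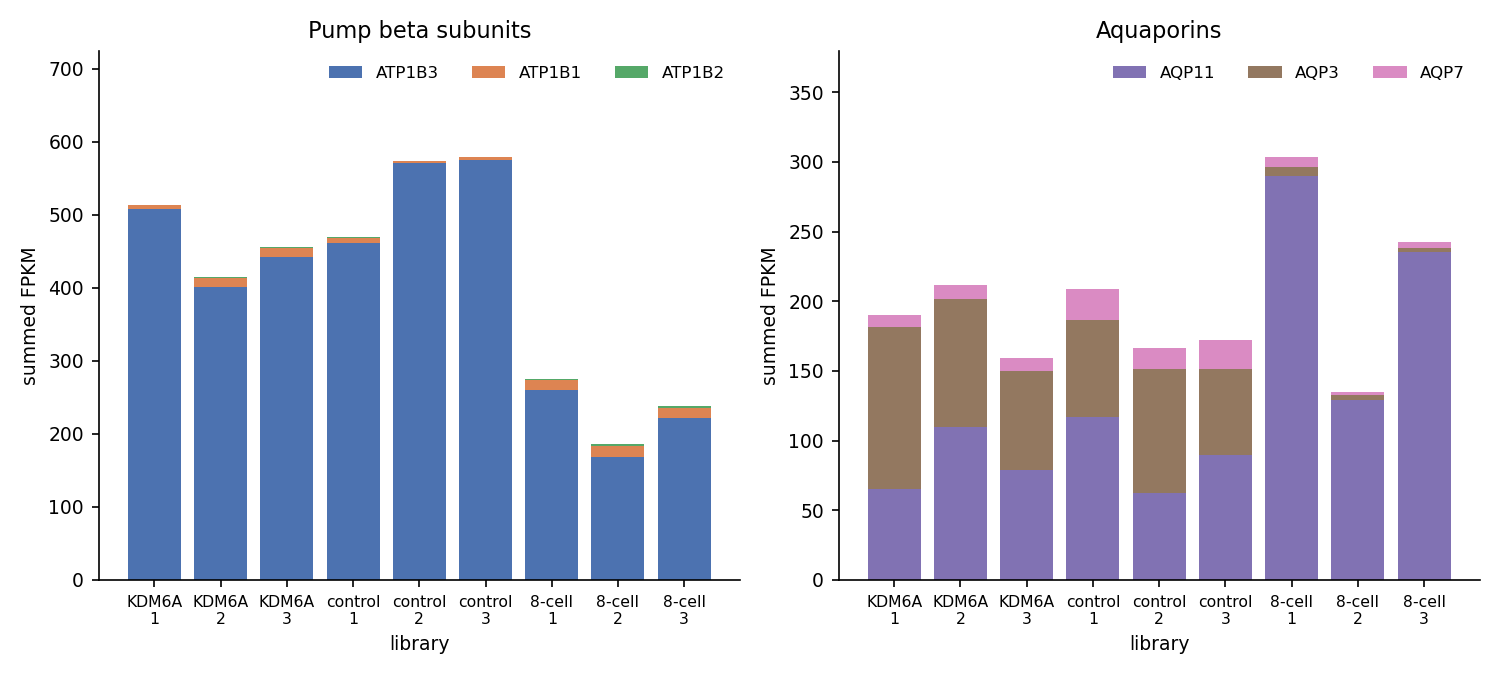
Summed FPKM (vertical axes, linear and starting at 0) of the 3 pump beta subunits at left and of AQP11, AQP3 and AQP7 at right, stacked for each of the 9 libraries. ATP1B3 fills 91.1% to 99.4% of each beta subunit bar, while AQP3 makes up 33.4% to 61.1% of the bar in morula libraries and 1.17% to 2.49% in 8-cell libraries.

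Added together, the beta subunits reached 461 ± 50.1 FPKM in KDM6A morulae, 541 ± 62.3 FPKM in control morulae and 233 ± 45.3 FPKM in 8-cell embryos (SD, n = 3 each). ATP1B3 supplied 98.7%, 96.8% and 97.1% of that sum in KDM6A morulae, 98.5%, 99.4% and 99.3% in control morulae, and 94.2%, 91.1% and 93.1% in 8-cell embryos. The share of ATP1B1 was 1.13%, 2.96% and 2.74% in KDM6A morulae, 1.36%, 0.488% and 0.569% in control morulae, and 5.11%, 8.04% and 6.12% in 8-cell embryos. Both morula groups lay below the 8-cell libraries in the ATP1B1 share and above them in the ATP1B3 share. The exact two-sided permutation test gave p = 0.1 for each, the lowest value possible with 3 libraries a group, and p = 0.2 for each share between the morula groups.

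AQP3 (ENSBTAG00000008493.4) encodes a plasma membrane channel for water and glycerol. It stood at 116.16, 91.87 and 71.11 FPKM in KDM6A morulae, 69.68, 88.74 and 61.76 FPKM in control morulae, and 6.58, 3.35 and 2.84 FPKM in 8-cell embryos. The lowest morula library was far above the highest 8-cell library, and the 2 morula groups overlapped. Mean FPKM in KDM6A and in control morulae was 21.9 and 17.2 times that of 8-cell embryos. On the log2 scale AQP3 was higher by 4.20 in KDM6A morulae (SE 0.306, limma adjusted p = 2.05e-06) and by 3.87 in control morulae (SE 0.288, limma adjusted p = 4.31e-06). AQP3 exceeded 89.4% to 93.0% of shared genes in the morula libraries and 56.5% to 67.1% in the 8-cell libraries.

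AQP11 (ENSBTAG00000019928.4) encodes an unusual aquaporin that sits mainly in the endoplasmic reticulum. It ran the other way, at 65.03, 110.07 and 78.97 FPKM in KDM6A morulae, 116.67, 62.42 and 89.45 FPKM in control morulae, and 289.86, 129.36 and 235.33 FPKM in 8-cell embryos. All morula libraries lay below all 8-cell libraries, with 8-cell library 2 close to the highest morulae. The log2 fold changes were -1.31 in KDM6A morulae (SE 0.304, limma adjusted p = 0.00293) and -1.24 in control morulae (SE 0.319, limma adjusted p = 0.00579). The 9 oocyte and maternal transcripts moved the same way, with summed FPKM of 111.94 to 194.08 in KDM6A morulae, 22.54 to 488.78 in control morulae and 3830.97 to 9137.56 in 8-cell embryos. Among libraries of 1 group the order of AQP11 and of that sum was opposite in KDM6A morulae and the same in control morulae. Among 8-cell embryos library 2 had the highest sum and the lowest AQP11. Most of the 8-cell sum was 1 gene, BTG4, at 3360.44, 8657.55 and 5715.83 FPKM in libraries 1, 2 and 3. The rest did not share 1 order, and library 2 was highest for GDF9 and lowest for BMP15. The part of maternal transcript in the AQP11 level was not tested. Without 8-cell library 2 the AQP11 changes were -1.65 in KDM6A and -1.58 in control morulae (limma adjusted p = 0.000347 and 0.000779).

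Set side by side with AQP7, another glycerol channel and the one further aquaporin above 5 FPKM in any library, AQP3 and AQP11 took different shares at the 2 stages. AQP7 stood at 9.06, 10.05 and 9.07 FPKM in KDM6A morulae, 22.43, 15.20 and 20.67 FPKM in control morulae, and 7.42, 1.84 and 4.52 FPKM in 8-cell embryos. Its row carries that name in the 8-cell files alone and was joined by identifier. The sum of the 3 was 187 ± 26.6 FPKM in KDM6A morulae, 182 ± 23.1 FPKM in control morulae and 227 ± 85.7 FPKM in 8-cell embryos (SD, n = 3 each), and both morula groups overlapped the 8-cell libraries. Of that sum, formed after the values were seen, AQP3 made up 61.1%, 43.3% and 44.7% in KDM6A morulae, 33.4%, 53.3% and 35.9% in control morulae, and 2.17%, 2.49% and 1.17% in 8-cell embryos.

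SLC9A3R1 (ENSBTAG00000011382.3, listed as NHERF1 in RefSeq) encodes a scaffold with PDZ domains that ties membrane transporters, sodium-proton exchanger 3 among them, to ezrin and the actin cortex. It stood at 23.23, 11.71 and 12.23 FPKM in KDM6A morulae, 25.15, 35.80 and 23.15 FPKM in control morulae, and 2.07, 0.76 and 1.62 FPKM in 8-cell embryos. The 8-cell libraries lay below all morulae. The log2 fold changes were 2.72 in KDM6A morulae (SE 0.335, limma adjusted p = 4.90e-05) and 3.56 in control morulae (SE 0.288, limma adjusted p = 6.94e-06). Ratios of mean FPKM to 8-cell embryos were 10.6 for KDM6A morulae and 18.9 for control morulae. Again 8-cell library 2 was the lowest, and without it the log2 fold changes were 2.49 and 3.33 (limma adjusted p = 0.00022 and 2.03e-05).

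Within each group the levels fell into an order in which several neighbours overlapped. In KDM6A morulae ATP1B3 was followed by AQP3 and AQP11, whose libraries overlapped, then by SLC9A3R1 and ATP1B1, which also overlapped, and last by ATP1B2. Control morulae had AQP11 and AQP3 overlapping below ATP1B3, with SLC9A3R1, ATP1B1 and ATP1B2 below them and not overlapping. In 8-cell embryos AQP11 and ATP1B3 overlapped at the top, ATP1B1 came next, then AQP3, and ATP1B2 and SLC9A3R1 overlapped at the bottom.

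**Figure D3:**
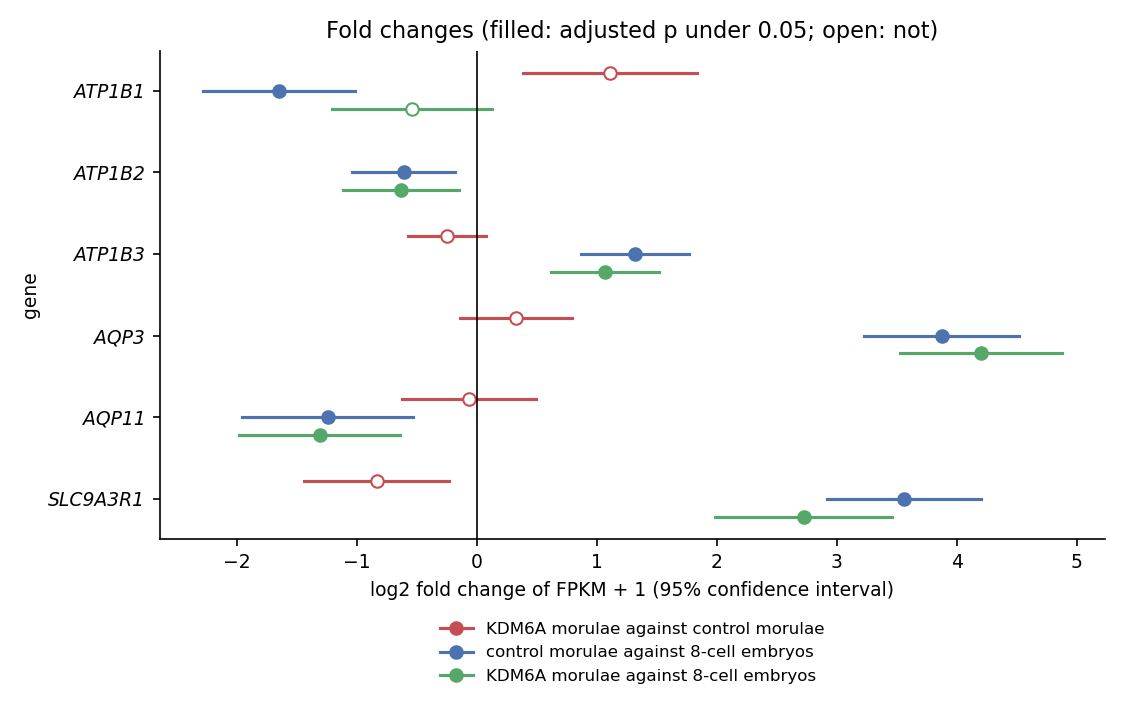
Log2 fold change of FPKM + 1 (horizontal axis) with its 95% confidence interval for each gene (rows) in KDM6A against control morulae, control morulae against 8-cell embryos and KDM6A morulae against 8-cell embryos; filled points have limma adjusted p under 0.05. AQP3 and SLC9A3R1 lie furthest right in the 2 stage comparisons, and the 5 points of KDM6A against control morulae are all open.

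The study's own question is what KDM6A mRNA does to cloned morulae, and for these genes no difference passed. With limma, 0 of the 5 members tested had an adjusted p under 0.05, where 0.164% of 9777 genes did. At an unadjusted p under 0.05 there were 2 of 5, ATP1B1 on the higher and SLC9A3R1 on the lower side, where 12.7% of genes reached that level. The 2 morula groups overlapped for all 6 members, where 15.7% of genes did not overlap. ATP1B2 was below the filter and was compared by the exact two-sided permutation test alone (p = 0.9).

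ATP1B1 averaged 10.2 ± 3.81 FPKM in KDM6A morulae and 4.16 ± 1.94 FPKM in control morulae (SD, n = 3 each), a ratio of 2.45. Its log2 fold change of 1.11 had a 95% confidence interval of 0.39 to 1.84 (unadjusted p = 0.00631, limma adjusted p = 0.276) and lay at percentile 99.4 of all genes. On its own values the gene had p = 0.2 by the exact two-sided permutation test. SLC9A3R1 averaged 15.7 ± 6.51 FPKM in KDM6A morulae and 28.03 ± 6.80 FPKM in control morulae. Its log2 fold change was -0.84 with an interval of -1.44 to -0.23 (limma adjusted p = 0.286), at percentile 1.41, and the exact permutation test gave p = 0.2. Of 7 trophectoderm markers, 0 passed with limma and 4 had an unadjusted p under 0.05, where 12.7% of all genes tested did. Their median log2 fold change was -0.55 beside -0.0116 over all genes. The transcription factor GATA2 was at 0.93, 0.50 and 0.50 FPKM in KDM6A morulae and 2.44, 3.24 and 3.02 FPKM in control morulae (log2 fold change -1.25, limma adjusted p = 0.0601), and it entered the test through the controls alone. Its relative GATA3 was at 3.29, 2.33 and 2.56 FPKM in KDM6A morulae and 7.04, 7.56 and 8.35 FPKM in control morulae (-1.22, limma adjusted p = 0.0561). Neither passed, and GATA2 adds no support to the count of 4. For both, as for TEAD4, the groups did not overlap, and likewise for 15.7% of all genes tested. The part of these markers in the SLC9A3R1 difference was not tested.

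In both genes the overlap came from KDM6A morula 1 together with a single control library. For SLC9A3R1 KDM6A morula 1 stood at 23.23 FPKM, above control morula 3 alone, at 23.15 FPKM. For ATP1B1 it stood at 5.79 FPKM, below control morula 1 alone, at 6.38 FPKM. KDM6A morula 1 also had the lowest KDM6A transcript of its group, 35.65 FPKM. Without it the ATP1B1 log2 fold change was 1.44 (limma adjusted p = 0.018) and SLC9A3R1 one of -1.14 (limma adjusted p = 0.0166), so that 2 of the 5 members passed. The whole comparison then gave 745 genes, or 7.62% of those tested, in place of 16. The part of that library in either difference beyond these values was not tested. Among the controls, ATP1B1 was highest in control morula 1, the library with the most oocyte transcript, where BTG4, a gene known for clearing maternal mRNA, was at 374.34 FPKM against 8.35 and 90.41 FPKM in control morulae 2 and 3. In KDM6A morulae 1, 2 and 3 BTG4 was at 159.89, 86.76 and 106.77 FPKM. Leaving control morula 1 out gave an ATP1B1 log2 fold change of 1.40 that did not pass (limma adjusted p = 0.137).

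**Figure D4:**
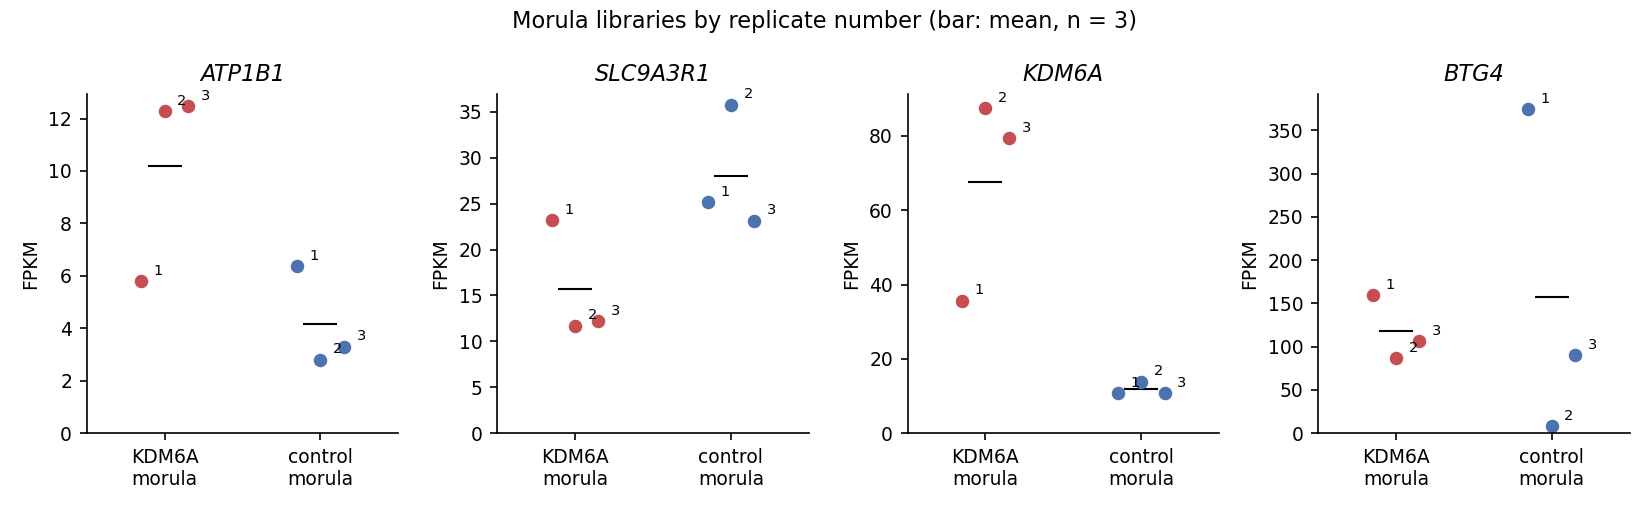
FPKM (vertical axes, linear and starting at 0) of ATP1B1, SLC9A3R1, the injected gene KDM6A and the maternal transcript BTG4 in the 3 KDM6A and 3 control morula libraries, numbered by replicate, with bars at the means. KDM6A morula 1 lies with the controls in ATP1B1 and SLC9A3R1 and has the lowest KDM6A level of its group, and control morula 1 has the highest BTG4.

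The other 3 members tested lay nearer to no difference, with limits that still allow moderate ones. ATP1B3 had a log2 fold change of -0.25 (95% confidence interval -0.58 to 0.08, limma adjusted p = 0.491), AQP3 one of 0.33 (-0.14 to 0.79, limma adjusted p = 0.533) and AQP11 one of -0.07 (-0.62 to 0.49, limma adjusted p = 0.928). The direction for AQP11 turned without KDM6A morula 1 or control morula 1. For the share of AQP3 in the 3 aquaporins and for the sum of beta subunits the morula groups overlapped (exact permutation p = 0.4 and 0.2), in a design that cannot go below 0.1.

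The wider list of sodium and water transport genes held 49 further symbols, of which 33 had a row. In KDM6A against control morulae 14 could be tested and 0 passed with limma, with 1 at an unadjusted p under 0.05 and a median log2 fold change of -0.0235 beside -0.0116 over all genes. The exception was AQP7, at 9.39 ± 0.569 FPKM in KDM6A morulae and 19.4 ± 3.77 FPKM in control morulae without overlap, -0.96 on the log2 scale (SE 0.205, limma adjusted p = 0.109). Control morulae against 8-cell embryos had 14 tested, 6 higher and 5 lower, where 42.7% of all genes tested were higher and 27.1% lower, with a median of -0.13 beside 0.35 over all genes. In KDM6A morulae against 8-cell embryos there were 16 tested, 7 higher and 6 lower, where 41.1% of all genes tested were higher and 25.6% lower, with a median of 0.29 beside 0.34. Of these, 11 and 10 reached 1 FPKM in some library of both groups, and the others passed the filter through 1 group alone.

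Membrane linkers of the ezrin family, which bind the SLC9A3R1 scaffold to actin, split in direction. MSN, which encodes moesin, was at 43.64, 55.33 and 59.73 FPKM in KDM6A morulae, 44.60, 47.35 and 42.32 FPKM in control morulae, and 4.16, 1.07 and 1.02 FPKM in 8-cell embryos, a rise of 4.26 and 4.04 on the log2 scale in KDM6A and control morulae (limma adjusted p = 4.74e-06 and 1.02e-05). EZR, which encodes ezrin, was at 36.48 to 49.0 FPKM in KDM6A morulae, 36.17 to 69.35 FPKM in control morulae and 104.62 to 124.97 FPKM in 8-cell embryos. It fell in both morula groups, with log2 fold changes of -1.45 and -1.23 in KDM6A and control morulae (limma adjusted p = 0.000119 and 0.00134). RDX, which encodes radixin, fell too, with -1.16 and -0.94 (limma adjusted p = 0.000899 and 0.00243). PDZK1, another scaffold with PDZ domains, fell in KDM6A morulae with -0.90 (limma adjusted p = 0.0348) and had -0.78 in control morulae (limma adjusted p = 0.054).

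Genes of sodium-proton exchange were higher in morulae where they passed, 3 of the 5 tested in KDM6A morulae and 3 of the 4 tested in control morulae. Over all genes tested, 41.1% and 42.7% were higher. Of the genes tested here, 2 in each comparison reached 1 FPKM in some library of both groups. SLC9A9, an endosomal exchanger, rose to 3.89 to 5.54 FPKM in KDM6A morulae and 3.04 to 4.77 FPKM in control morulae, against 0.03 to 0.51 FPKM in 8-cell embryos (limma adjusted p = 2.37e-05 and 6.80e-05). The 8-cell libraries were under 1 FPKM, so it entered the test through the morulae. CHP1, a cofactor of plasma membrane exchangers, rose 1.82-fold and 1.74-fold in KDM6A and control morulae (limma adjusted p = 0.00229 and 0.00271).

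Of 7 listed routes for other sodium and anion transport, 2 could be tested in each stage comparison, and both were lower in morulae. Over all genes tested, 25.6% were lower in KDM6A morulae and 27.1% in control morulae. SLC12A2, a cotransporter of sodium, potassium and chloride, fell to 12.22 to 16.6 FPKM in KDM6A morulae and 11.26 to 13.41 FPKM in control morulae, against 35.94 to 41.95 FPKM in 8-cell embryos (limma adjusted p = 0.000276 and 6.12e-05). CFTR, a chloride channel, was at 0.1 to 0.29 FPKM in KDM6A morulae, 0.03 to 0.3 FPKM in control morulae and 2.38 to 5.96 FPKM in 8-cell embryos, so it entered the test through the 8-cell libraries alone. The pump regulator FXYD6 stood at 0.14 to 0.54 FPKM in KDM6A morulae, 0.48 to 1.59 FPKM in control morulae and 5.08 to 6.52 FPKM in 8-cell embryos. Against KDM6A morulae it entered the test through the 8-cell libraries alone, and in control morulae its log2 fold change was -1.80 (limma adjusted p = 0.00021). FXYD5, of the same family, was at 1.18 to 2.97 FPKM in KDM6A morulae, 0.66 to 2.11 FPKM in control morulae and 0 to 0.5 FPKM in 8-cell embryos, and it entered the test through the KDM6A morulae, with a log2 fold change of 1.26 (limma adjusted p = 0.00188).

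**Figure D5:**
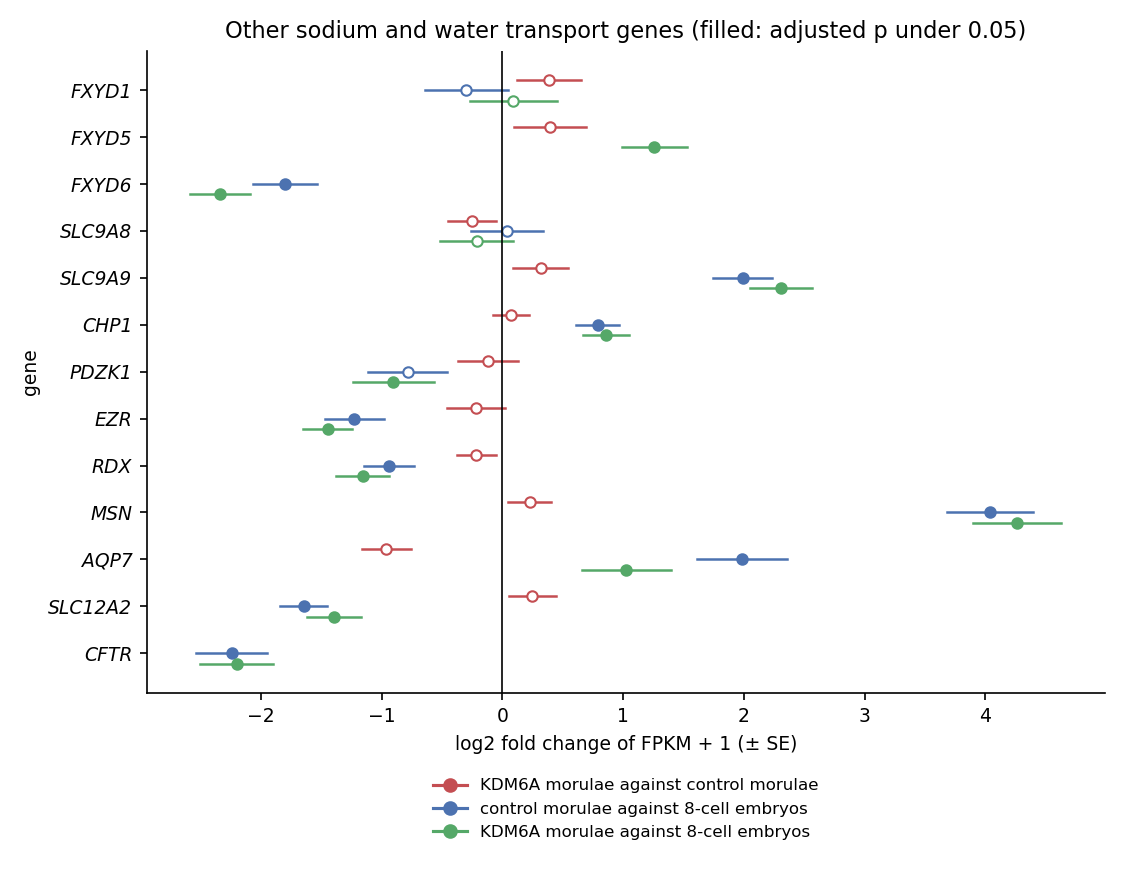
Log2 fold change of FPKM + 1 ± SE (horizontal axis) of the sodium and water transport genes outside the 6 members (rows) that could be tested and are reported, for KDM6A against control morulae, control morulae against 8-cell embryos and KDM6A morulae against 8-cell embryos; filled points have limma adjusted p under 0.05. MSN lies furthest right at 4.26 and 4.04 in the stage comparisons, and every point of KDM6A against control morulae is open.

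Genes whose levels over the 9 libraries most resembled each member were looked up among 6350 candidates that had 1 usable symbol and averaged 5 FPKM or more in some group. ATP1B2 was below that level and was left out. The measure was Pearson's r of log2(FPKM + 1), given as a description with no p-value. Stage and source are shared by all 3 libraries of a group, and their part in r was not tested. ATP1B1 was most like CXADR (r = 0.978) and ZMPSTE24 (r = 0.959), and only 6 genes reached 0.95. CXADR, a cell junction protein that serves as a virus receptor, was at 11.88, 32.44 and 38.41 FPKM in KDM6A morulae, 15.63, 8.37 and 10.97 FPKM in control morulae, and 43.81, 41.40 and 37.20 FPKM in 8-cell embryos. It shared the low value of KDM6A morula 1. For AQP11 the nearest were NIFK (r = 0.987) and FASTKD2 (r = 0.983), with 31 genes at 0.95 or more. The members higher in morulae had many such neighbours, 1190 for AQP3, 834 for SLC9A3R1 and 568 for ATP1B3. Nearest to AQP3 were SLC39A1 and KPTN (r = 0.998 and 0.997), to SLC9A3R1 ARF5 and STRBP (r = 0.998 and 0.997), and to ATP1B3 HDAC6 and PRKX (r = 0.997 and 0.990).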

How the data were processed

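Deposited files hold 1 FPKM value per gene, named so per the file headers and rounded by the authors to 2 decimals. The tools named, per the submitters' processing notes, are RSEM 1.2.12, Bowtie2 2.2.5, HISAT 0.1.6, StringTie 1.0.4 and bcl2fastq 2.16, and the build is UMD3.1. The sources used here do not say what each did or how reads with several places were treated. Files were joined by gene identifier. The 3038 rows without one, in control morula 1, were left out.

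Values were tested as log2(FPKM + 1) by limma 3.58.1 (R 4.3.3) with group means and a trended prior, on the 6 libraries compared. A gene was kept when 3 or more of these held 1 FPKM or more. P-values were adjusted over all genes tested (Benjamini-Hochberg, threshold 0.05). A fold change on this scale understates that of low genes, and "-fold" or "times" is a ratio of mean FPKM. The test was tested on simulated data with 200 genes changed, where its estimates of the larger changes were close to those simulated. For KDM6A against control morulae it recovered 90% of 2-log2 and 46% of 1-log2 changes. Only 16 of 9777 genes passed in that comparison of the real data, fewer than the 200 changed here, so these shares may be too high for it. A change of the size seen between the morulae for ATP1B1 or SLC9A3R1 can thus go uncalled. With the stage comparisons' spread it recovered 80% to 87% and 27% to 29%. Far more than 200 genes passed in the real stage comparisons, so these shares do not describe them. Single values were compared with exact permutation tests (scipy 1.17.1, Python 3.11.15), for which 3 against 3 reaches p = 0.1 at best. Members and lists were chosen with earlier results of these data known. All members are named, as are genes drawn from those listed that passed a test or averaged at least 5 FPKM in some group, and the 2 nearest genes by r. GATA2, SCNN1G and the genes under 1 FPKM were named outside this rule, after their values were seen. Alternatives were other pseudocounts, filters, scalings, fits and replicates left out. Deviations from the group mean had r of -0.217, -0.242 and 0.16 between KDM6A and control morulae of the same number, 1, 2 and 3. With controls of other numbers r was -0.113 to 0.310, -0.0132 to 0.241 and -0.197 to 0.0751. With 3 libraries a group these values cannot decide whether the numbers pair the samples. Some listed genes are not reported here.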

Additional observations from a re-analysis of the deposited data

How the results depend on the processing

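In the stage comparisons the members kept their direction under every alternative run, namely other pseudocounts (0.1 and 0.5), other filters (none and 5 FPKM), other scalings (TPM, median-of-ratios and quantile), 1 fit of all 9 libraries, a replicate block, and leaving out each replicate. ATP1B2 could not be tested at 5 FPKM. Members passing numbered 5 to 6 in control morulae and 4 to 6 in KDM6A morulae against 8-cell embryos. In KDM6A against control morulae, genes passing numbered 16, and instead 0 with no filter, 25 on the TPM scale, 28 after quantile normalization and 10 with all 9 libraries. It was 1 with the replicate number as a block, although the labels do not say whether the numbers pair the samples. With a replicate left out it was 1 to 745, and members passing 0 to 2. Without KDM6A morula 1, 2 or 3 it was 745, 6 and 1, and without control morula 3 it was 4. The causes were not tested. The AQP11 log2 fold change between the morulae, -0.07, turned to 0.10 without KDM6A morula 1 and 0.14 without control morula 1, in a range of -0.30 to 0.14 over replicates left out. ATP1B2 in KDM6A morulae against 8-cell embryos lost its call without KDM6A morula 3 (-0.53). The ATP1B2 share between the morulae differed by 0.0212 percentage points, and by -0.0145 without KDM6A morula 2. Depth is unknown, so the precision of low genes such as ATP1B2 rests on 3 libraries a group.
The difference in the ATP1B1 share between KDM6A and control morulae was 1.13 to 2.05 percentage points with a replicate left out.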

Other observations

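Several sodium and water transport genes were near the bottom of the measured range in all embryos. Of the 33 listed genes with a row, 12 stayed under 1 FPKM in every library that lists them, with 0.88 FPKM the highest value among them. They included ATP1B4, a further relative of the pump beta subunits, the proton pump subunits ATP4A, ATP4B and ATP12A, the epithelial sodium channel subunits SCNN1A and SCNN1B, and the aquaporins AQP4, AQP8 and AQP1, of which AQP1 has a row in the 8-cell files alone. AQP8 was listed at 0 in 8 of the 9 libraries and at 0.09 FPKM in KDM6A morula 3. The third subunit of that sodium channel, SCNN1G, stood at 0.02 to 0.12 FPKM in KDM6A morulae, was listed at 0 in the control morulae and stood at 0.46, 0.05 and 2.66 FPKM in 8-cell embryos.

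The beta subunits also differed in how evenly libraries of 1 group agreed. The coefficient of variation of ATP1B1 was 37.4% in KDM6A morulae, 46.6% in control morulae and 2.86% in 8-cell embryos, and that of ATP1B3 was 11.9% in KDM6A morulae, 11.98% in control morulae and 21.0% in 8-cell embryos. For ATP1B2, the lowest of the 3, it was 30.5% in KDM6A morulae, 13.7% in control morulae and 4.05% in 8-cell embryos. With 3 libraries a group these spreads are loosely estimated, and their differences were not tested.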
